A study of Mus musculus with 4 samples.

Results

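Bglap-high osteoblasts are the cells described here, taken from single-cell RNA libraries that were made from limb marrow at postnatal day 12, on the strain C57BL/6. Mutant mice carried Prx1-cre with Mettl3-fl/fl. In them a Cre driven by the Prx1 regulatory sequence, which is active in limb bud mesenchyme and the bone and stromal cells that descend from it, deletes the floxed gene for the catalytic subunit of the m6A RNA methyltransferase. The label of mutant library 2 says no more than mutant. Control mice are labelled control with no alleles given, so whether they carried floxed alleles or Cre is not known here. Cells that were negative for CD45 and Ter119 and for DAPI, and positive for Calcein-AM, had been sorted from 3 mutant and 3 control mice, and 2 mutant and 2 control libraries were made. Which mice entered which library is not given, and the p-values below rest on the spread between these libraries together with a spread shared across genes.

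A cell counted as a Bglap-high osteoblast when it had at least 1000 UMIs (unique molecular identifiers, 1 per captured transcript), 500 genes and no more than 10% mitochondrial UMIs, and met limits on 9 genes. Bglap and Bglap2 together had to reach 1000 CPM (UMIs of a gene per 1000000 UMIs of the cell), Ifitm5 and Ibsp 2 UMIs each. Mepe with Dmp1, and Cxcl12, had to stay under 2000 CPM, and Cdh5 and Pecam1 had to be absent. This rule found 1093 cells (selected on these measured values) among 16658 kept cells. There were 491 in mutant 1, 466 in mutant 2, 115 in control 1 and 21 in control 2. The 9 genes chose the cells, so their values are described and not tested.

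Osteoblasts are the cells that lay down bone. They secrete a matrix built mainly of type I collagen, then load it with mineral. Bglap and Bglap2 encode osteocalcin, a small matrix protein made late in osteoblast maturation, Ibsp encodes bone sialoprotein, an acidic phosphoprotein of mineralizing matrix, and Ifitm5 encodes BRIL, a membrane protein largely restricted to osteoblasts. Part of the cells become buried in the matrix as osteocytes, which make Dmp1 and Mepe. Runx2 and Sp7 (osterix) are the transcription factors on which the lineage depends.

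The promoters of 3 positive genes of the rule, Bglap, Ibsp and Ifitm5, are shown because these genes define the cells and, as given further on, had different patterns across the genotypes. The promoter reference held no entry for Bglap2, the other positive gene. Each runs from 250 bases before to 50 bases after the gene's start, in RefSeq's GRCm38.p6 annotation, 5′ to 3′ on the gene's strand. Capitals mark ACCACA, the core letters of a RUNX site, and TATAAA, the letters of a TATA box, both searched on both strands; a match on the minus strand appears as its reverse complement.
Bglap (chr3:88384417-88384716, minus strand): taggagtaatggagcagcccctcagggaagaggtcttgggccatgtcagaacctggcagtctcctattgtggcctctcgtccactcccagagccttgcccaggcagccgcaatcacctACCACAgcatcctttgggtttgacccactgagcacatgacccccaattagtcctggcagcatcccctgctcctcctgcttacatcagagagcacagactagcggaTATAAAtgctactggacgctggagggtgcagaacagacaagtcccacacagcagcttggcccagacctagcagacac
Ibsp (chr5:104299037-104299336, plus strand): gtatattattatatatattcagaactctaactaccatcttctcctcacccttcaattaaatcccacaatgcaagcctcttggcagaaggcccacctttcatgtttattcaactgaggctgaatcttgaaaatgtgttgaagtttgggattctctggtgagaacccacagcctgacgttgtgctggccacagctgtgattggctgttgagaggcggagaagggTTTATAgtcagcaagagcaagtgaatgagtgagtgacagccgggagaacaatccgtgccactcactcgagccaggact
Ifitm5 (chr7:140950194-140950493, minus strand): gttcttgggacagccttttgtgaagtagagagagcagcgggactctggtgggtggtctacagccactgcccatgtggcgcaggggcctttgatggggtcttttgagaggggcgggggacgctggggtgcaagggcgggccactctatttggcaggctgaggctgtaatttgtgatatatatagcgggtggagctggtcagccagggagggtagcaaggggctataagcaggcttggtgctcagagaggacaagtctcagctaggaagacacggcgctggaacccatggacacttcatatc
The Bglap window held both sets of letters, ACCACA at position -132 and TATAAA at position -27 from the start. The Ibsp window held the TATA letters on the minus strand at position -28, and the Ifitm5 window held no match. ACCACA stood in 16.7% and TATAAA in 13.6% of 32544 mouse promoters of this length, and a match describes letters, not a bound site. The reference transcripts of Bglap and Bglap2 were identical at 98.6% of 440 aligned bases, so the division of reads between these 2 genes is uncertain, and a value of either gene alone is too.

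The osteoblasts were deep cells in each library. Their median was 26360 UMIs in mutant 1 and 26530 in mutant 2, against 26830 in control 1 and 27020 in control 2. Mutant 2 also held a shallow tail, with a 10th percentile of 2454 UMIs, while that of mutant 1 was 11200, that of control 1 was 12850 and that of control 2 was 17470. The summed osteoblasts gave 12907451 and 11522003 UMIs in mutants 1 and 2, and 3153496 and 550332 UMIs in controls 1 and 2. Control 2 therefore rested on 21 cells. No osteoblast barcode was shared between libraries, and pairs of libraries shared 2 to 10 of their kept barcodes. The mutant 1 matrix held called barcodes without empty droplets, so free RNA could be measured in the other 3 libraries.

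Osteoblasts made up a larger share of the sorted cells in the mutant libraries. The share was 18.7% in mutant 1 (95% Clopper-Pearson interval 17.2 to 20.2%) and 10.2% in mutant 2 (9.30 to 11.1%), against 1.98% in control 1 (1.64 to 2.37%) and 0.578% in control 2 (0.358 to 0.882%). The intervals cover counting error only. The genotype means differed by 13.1 percentage points, with no overlap between the genotypes and no test, since an exact permutation test of 2 libraries against 2 cannot reach 0.05. A sort gate and the numbers of all other cells set such a share, and in it a gain of osteoblasts and a loss of other cells cannot be told apart. Within bone-lineage cells the order was the other way round. Bone-lineage cells were counted as the osteoblasts plus 2088 further cells with at least 2 Ibsp UMIs and 2000 CPM of Col1a1 and without the Cxcl12, Cdh5 or Pecam1 signal. Osteoblasts were 30.6% of 1607 such cells in mutant 1 (28.3 to 32.9%) and 37.1% of 1257 in mutant 2 (34.4 to 39.8%), against 40.6% of 283 in control 1 (34.9 to 46.6%) and 61.8% of 34 in control 2 (43.6 to 77.8%). Mutant 2 and control 1 have overlapping intervals. Without control 2 the difference of means was -6.82 points, against -17.4 points with all libraries.

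Free RNA carried osteoblast transcripts in the libraries where it could be measured, and most in mutant 2. Barcodes with 10 to 100 UMIs, which hold free RNA, carried 8119 CPM of Bglap with Bglap2 in mutant 2, against 1704 and 1354 CPM in controls 1 and 2. For Ibsp they carried 4042 CPM in mutant 2, against 503 and 30.2 CPM in the controls. Cells with at least 5% globin UMIs are erythroid and should lack osteocalcin. Of these, 20 of 701 in mutant 2 and 0 of 76 in mutant 1 met the whole rule, against 0 of 1276 in control 1 and 0 of 823 in control 2; their median depths were 11689, 10150, 13917 and 16768 UMIs in the same order. Among cells rich in neutrophil transcripts, 16 of 935 in mutant 2 and 5 of 207 in mutant 1 met the rule, against 0 of 24 and 0 of 37 in the controls. All of these shares for the whole rule lay under the share of osteoblasts among kept cells of the same library. The osteocalcin limit alone was met by 106 of 701 globin-rich cells in mutant 2 and 9 of 76 in mutant 1, against 1 of 1276 and 4 of 823 in controls 1 and 2. Of neutrophil-rich cells, 107 of 935 in mutant 2 and 13 of 207 in mutant 1 met it, against 0 in both controls. Osteocalcin in free RNA lay above the 1000 CPM limit in mutant 2 and both controls, and in mutant 2 also above its median osteoblast, at 4050 CPM. How far free RNA entered the shares above was not tested. How the blood-rich cells came to meet the limits was not tested either.

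Osteocalcin and bone sialoprotein stood in opposite order across the genotypes. The median osteoblast had 3647 CPM of Bglap with Bglap2 in mutant 1 and 4050 in mutant 2, against 11320 in control 1 and 97020 in control 2. Cells under 5000 CPM numbered 284 of 491 in mutant 1 and 258 of 466 in mutant 2, against 39 of 115 in control 1 and 1 of 21 in control 2. Cells at 20000 CPM or more numbered 71 in each mutant, against 51 in control 1 and 16 in control 2. Cells with 50000 CPM or more were 5.30% of the osteoblasts in mutant 1 and 3.65% in mutant 2, against 30.4% in control 1 and 61.9% in control 2. Just inside the limit, at 1000 to 2000 CPM, lay 153 and 118 osteoblasts of mutants 1 and 2, against 12 and 0 of controls 1 and 2. Just outside it, at 500 to 1000 CPM with all other limits met, lay 161 and 94 cells in the mutants, against 15 and 2 in the controls. For Ifitm5, cells that missed the limit by having 1 UMI numbered 55 and 96 in the mutants, against 5 and 1 in the controls.

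The median osteoblast had 19250 CPM of Ibsp in mutant 1 and 11420 in mutant 2, against 2829 in control 1 and 1250 in control 2. Summed over the osteoblasts, Ibsp was at 24520 and 14590 CPM in the mutants, against 4667 and 3830 CPM in the controls. Bglap with Bglap2 summed to 12450 and 13760 CPM in the mutants, against 48470 and 92100 CPM in the controls. Of the parts, Bglap was at 8498 and 9262 CPM in the mutants, against 34680 and 64270 CPM in the controls, and Bglap2 at 3956 and 4494 CPM in the mutants, against 13790 and 27830 CPM in the controls. None of these 3 genes overlapped between the genotypes, which also held for 50.1% of all genes tested. Ifitm5 did overlap, with 1000 and 910 CPM in the mutants, against 1123 and 667 CPM in the controls. The early osteocyte genes, held down by the rule, were at 227 and 188 CPM for Dmp1 in the mutants, against 147 and 220 CPM in the controls. Mepe was at 77.7 and 16.3 CPM in the mutants, against 0.317 CPM in control 1, which is 1 UMI, and 0 in control 2.

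**Figure D1:**
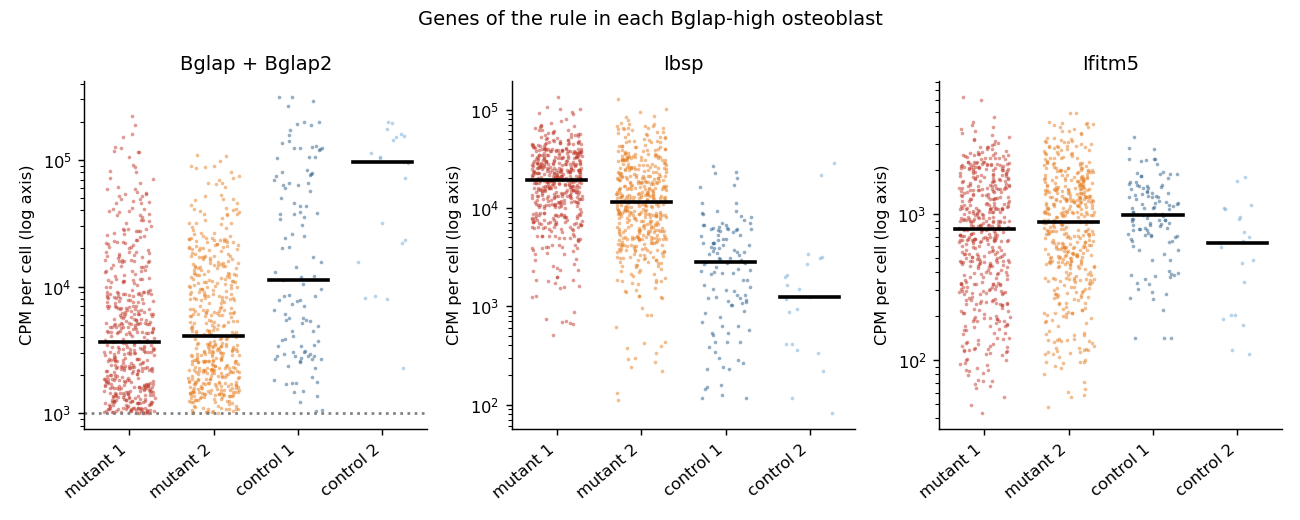
Each point is 1 osteoblast, with its CPM on a log axis, for Bglap with Bglap2 (left), Ibsp (middle) and Ifitm5 (right) in the 2 mutant and 2 control libraries; black lines are medians and the dotted line is the 1000 CPM limit. Mutant cells crowd near the osteocalcin limit (medians 3647 and 4050 CPM, against 11320 and 97020 CPM in controls) and lie higher for Ibsp, while Ifitm5 overlaps.

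The label of the cells was checked on osteoblast genes that the rule did not use. Col1a1 was at 53910 CPM or above and Sparc at 24270 CPM or above in every library's osteoblasts, and Runx2, Sp7 and Alpl were present in all 4 libraries. The list of 12 such genes summed to 166200 and 150000 CPM in the mutants, against 257100 and 268100 CPM in the controls, and 0 of its 12 genes were higher and 6 lower in the comparison described below. Summed markers of fibroblasts, endothelium, B lineage and megakaryocytes each stayed under 12 CPM in every library, while markers of blood cells differed. The endothelial list holds Cdh5 and Pecam1, which the rule kept absent, and the stromal list holds Cxcl12, which it capped. The rule therefore set part of the endothelial and stromal sums, which are no check on the label. The 8 neutrophil markers summed to 845 and 4573 CPM in the mutants, against 7.29 and 9.09 CPM in the controls, where Ltf was at 0 in both libraries. The 7 erythroid markers summed to 128 and 2597 CPM in the mutants, against 479 and 594 CPM in the controls. The 7 bone progenitor markers summed to 1961 and 2103 CPM in the mutants, against 471 and 849 CPM in the controls, and 3 of the 7 were higher and 1 lower. Stromal markers (51.4 and 67.5 CPM in the mutants, against 56.5 and 89.0 CPM in the controls), those of macrophages and osteoclasts (212 and 207 CPM in the mutants, against 263 and 229 CPM in the controls) and those of chondrocytes (81.7 and 109 CPM in the mutants, against 141 and 67.2 CPM in the controls) were present at low levels, with overlap in the first and the last, and pericyte and muscle markers summed to at most 23.6 CPM. The part of such cells or of their RNA in the results below was not tested, except where values without blood-rich cells are given.

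Between the genotypes, 941 of 11359 genes tested (8.28%) were higher in mutant osteoblasts and 587 (5.17%) lower, at an adjusted p under 0.05, 13.5% in all. The test was edgeR's quasi-likelihood test on UMIs summed per library, with Benjamini-Hochberg adjustment over all 11359 genes and the notes' Cell Ranger version as a term, and adjusted p-values below come from it. With 4 libraries and the version term few residual degrees of freedom remain per gene, against 15.5 prior degrees of freedom taken across genes. The p-values therefore rest mostly on that shared spread and less on the spread of a gene's own libraries. The 4 libraries of 1474 of the called genes did not overlap between genotypes, but that also held for 50.1% of all genes tested. The median log2 fold change over all genes was 0.04. Each count of called list members below is to be read beside the shares over all genes tested, 8.28% higher and 5.17% lower. The number of calls changed when a library was left out, but those fits also lack the version term, since 3 libraries leave no residual degrees of freedom with it. Without the term and with all 4 libraries the counts were 406 higher and 244 lower, which are the counts to set beside the fits that follow. Each of those fits also has fewer libraries, so the part of the omitted library and that of the smaller number cannot be told apart. Without mutant 1 the counts were 358 higher and 166 lower, without mutant 2 they were 507 and 265, without control 2 they were 195 and 155, and without control 1, which leaves the 21 cells of control 2 as the controls, they were 0 and 3, with 1831 genes at an unadjusted p under 0.05. Of the 1528 called genes, 1505 to 1526 kept their direction in each of these 4 fits and 3 to 733 were called again. In the comparisons below, a count of genes passing in these fits is given for the fits without mutant 1, without mutant 2, without control 1 and without control 2, in this order.

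**Figure D2:**
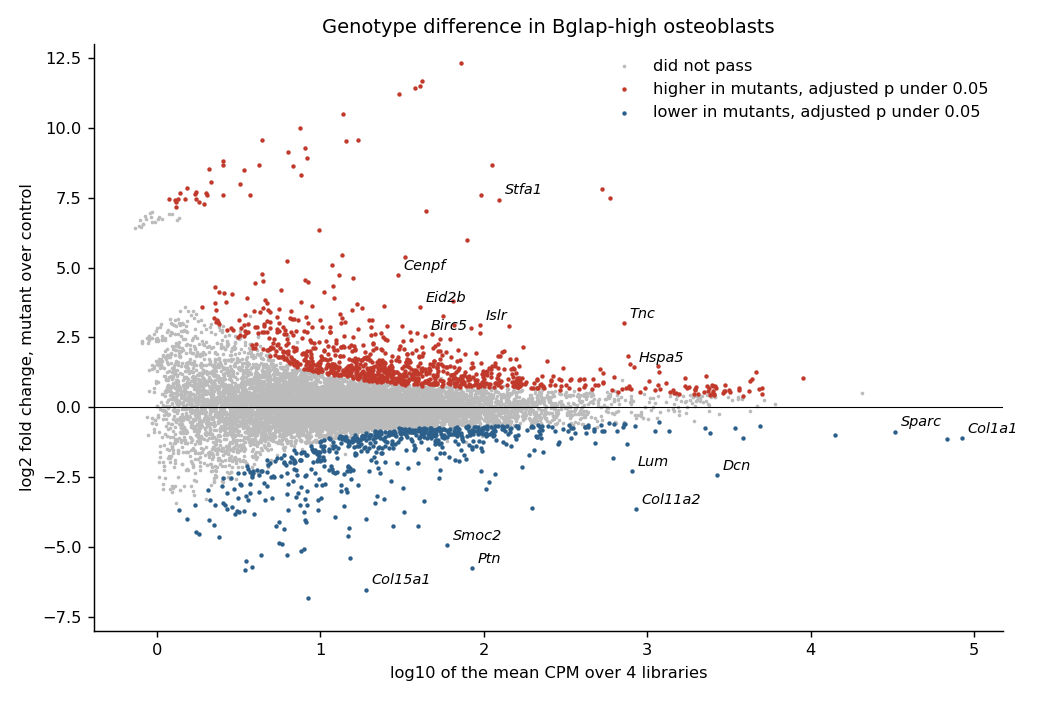
Each point is 1 of 11359 genes, with the log10 of its mean CPM over the 4 libraries on the horizontal axis and its log2 fold change, mutant over control, on the vertical axis; red and blue points passed the test. There are 941 red and 587 blue points, and the far upper left points are genes at or near 0 in the controls, whose fold change depends on edgeR's prior count.

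The targeted gene gave few counts. Mettl3 was at 2.94 CPM (38 UMIs) in mutant 1 and 4.77 CPM (55 UMIs) in mutant 2, against 6.34 CPM (20 UMIs) in control 1 and 5.45 CPM (3 UMIs) in control 2. The 4 values did not overlap, and the log2 fold change of -0.93 ± 0.56 (SE) did not pass (adjusted p = 0.30). A 3′ library reads the end of a transcript, and which exons were deleted is not stated here, so this does not check the deletion.

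Transcripts of type I collagen, the main fibre of bone matrix, were lower in mutant osteoblasts in the fit on all libraries with the version term. Col1a1, the alpha 1 chain of type I collagen, was at 53910 and 60260 CPM in mutants 1 and 2, against 108100 and 114500 CPM in controls 1 and 2. The log2 fold change was -1.12 ± 0.07 (adjusted p = 4.23e-08). Col1a2, the partner chain, was at 43950 and 48680 CPM in the mutants, against 88240 and 92590 CPM in the controls (-1.12 ± 0.08, adjusted p = 5.78e-08). For both chains the genotypes did not overlap. The fibril-regulating type XI chain Col11a2 showed a far wider gap, with 107 and 178 CPM in the mutants, against 1550 and 1554 CPM in the controls (-3.65 ± 0.20, adjusted p = 3.80e-09). In the list of 22 collagen genes, 19 could be tested, 3 were higher and 9 lower, with a median log2 of -0.73. Col5a2 and Col11a1, chains of fibril-nucleating collagens, fell by 0.73 and 0.74 on the log2 scale. Type III collagen, Col3a1, was at 26.1 and 24.8 CPM in the mutants, against 132 and 607 CPM in the controls, and basement-membrane-associated Col15a1 was at 0.155 and 0.781 CPM in the mutants, against 22.2 and 52.7 CPM in the controls (log2 -6.53 ± 0.44).

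Of the small leucine-rich proteoglycans that bind collagen fibrils, Dcn and Lum were lower and Fmod was higher. Dcn (decorin) was at 719 and 1151 CPM in the mutants, against 4407 and 4365 CPM in the controls (-2.42 ± 0.16). Lum (lumican) was at 306 and 295 CPM in the mutants, against 1234 and 1399 CPM in the controls (-2.28 ± 0.18). Fmod (fibromodulin), named here after its values were seen, was at 161 and 297 CPM in the mutants, against 69.5 and 72.7 CPM in the controls (1.42 ± 0.23, adjusted p = 5.67e-04). Sparc, the collagen- and calcium-binding osteonectin, was at 25240 and 24270 CPM in the mutants, against 42970 and 39120 CPM in the controls (-0.88 ± 0.09), and Thbs1 (thrombospondin 1) was at 26.5 and 32.6 CPM in the mutants, against 116 and 253 CPM in the controls. The opposite direction was held by Tnc, the adhesion-modulating glycoprotein tenascin C. It was at 1196 and 1370 CPM in the mutants, against 111 and 191 CPM in the controls (3.00 ± 0.21, adjusted p = 6.91e-08). Of 19 tested non-collagen matrix genes, 2 (Tnc and Fmod) were higher and 7 lower, and without the version term 2 were higher and 3 lower. Spp1 (osteopontin) was at 40190 CPM in mutant 1 and 13210 CPM in mutant 2, against 12330 and 16940 CPM in the controls; mutant 1 alone stood high, the genotypes overlapped and the gene did not pass (0.52 ± 0.31, adjusted p = 0.29).

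Not all of these matrix calls were equally firm. Without the version term 3 of the 19 collagens were lower and 3 higher. Leaving Fmod aside, of the 12 called matrix genes named above, 6, 7, 1 and 7 passed in the 4 fits that left out a library, all with their direction kept. Fmod passed without mutant 1 and in none of the other 3 fits (log2 1.18 to 1.77). Col1a1, Col1a2 and Sparc passed in none of those fits nor without the version term, with log2 -1.17 to -1.04, -1.18 to -1.04 and -1.05 to -0.70 over the omissions. Col3a1 ranged from -4.62 without control 1 to -2.59 without control 2 and passed in each fit, and Col15a1 ranged from -7.53 without mutant 2 to -5.65 without mutant 1.

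**Figure D3:**
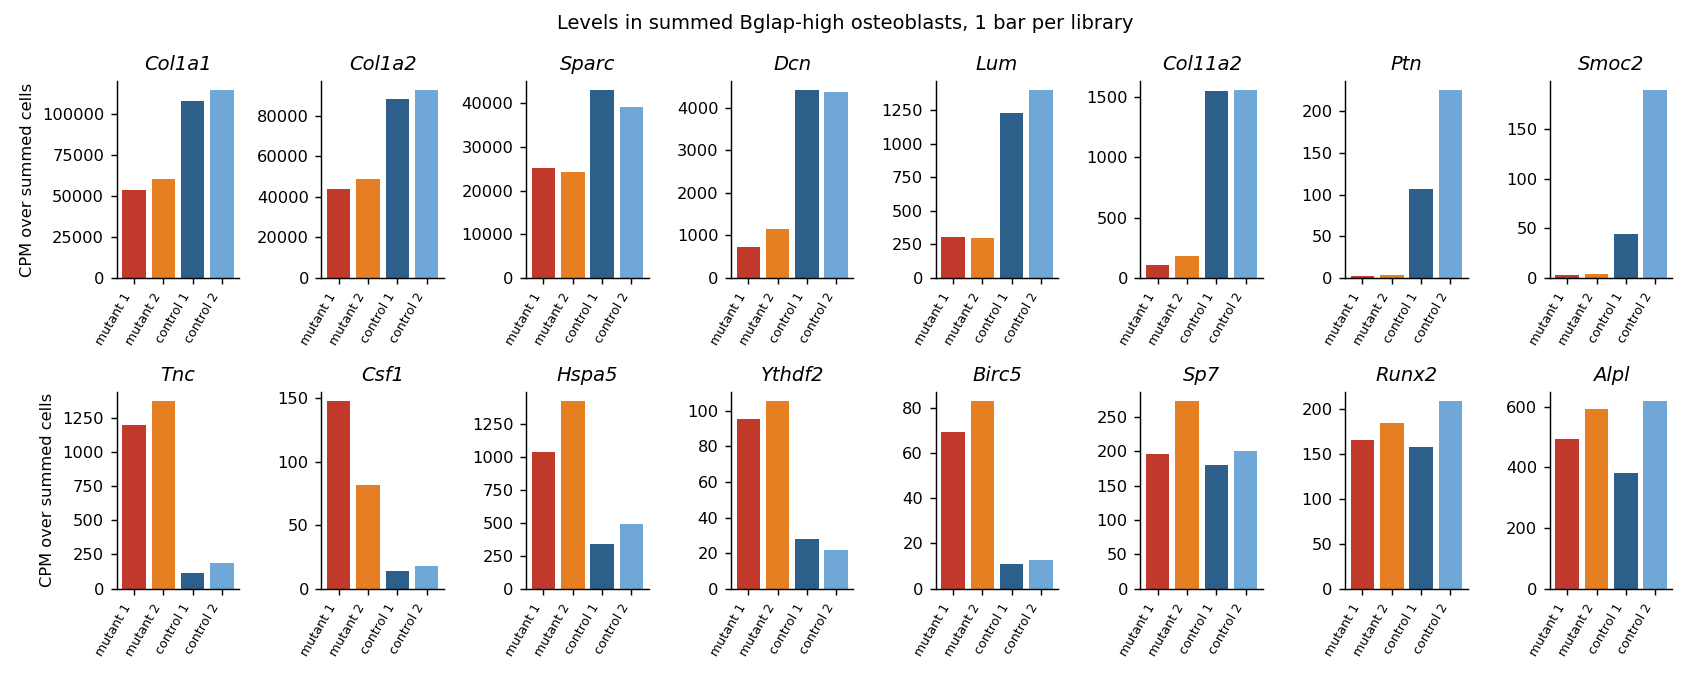
Bars give the level of 16 genes in CPM over the summed osteoblasts of each library, mutants in red and orange to the left, controls in blue to the right, each axis from 0. Col1a1, Col1a2, Sparc, Dcn, Lum, Col11a2, Ptn and Smoc2 are low in both mutants, Tnc, Csf1, Hspa5, Ythdf2 and Birc5 are high, and Sp7, Runx2 and Alpl did not pass the test.

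Among the other genes with the smallest p-values, the lower ones included secreted growth-factor-binding and matrix products. Ptn, the heparin-binding growth factor pleiotrophin, was at 2.79 and 3.65 CPM in the mutants, against 107 and 225 CPM in the controls (-5.75 ± 0.29, adjusted p = 3.56e-09). The matrix protein Smoc2 was at 3.099 and 3.645 CPM in the mutants, against 44.1 and 189 CPM in the controls (-4.93 ± 0.37). Igfbp5, which binds insulin-like growth factors, was at 12.4 and 44.7 CPM in the mutants, against 101 and 253 CPM in the controls (-2.91 ± 0.23). Guca1a, known as a calcium-binding activator of retinal guanylate cyclase, fell by 4.24 on the log2 scale, the mitochondrial protein gene Ndufa4l2 by 4.23, and the zinc-finger gene Zfp469 by 3.35. Of these 6 genes 6, 6, 2 and 5 passed in the fits without a library; Ptn and Smoc2 passed in all 4, at log2 -6.19 to -5.29 and -5.86 to -3.94. Igfbp5 ranged from -3.76 without mutant 2 to -2.13 without control 2.

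The higher genes with the smallest p-values fell into neutrophil transcripts and others. Islr, a secreted protein with immunoglobulin and leucine-rich domains, was at 169 and 165 CPM in the mutants, against 16.8 and 27.3 CPM in the controls (2.93 ± 0.28). Eid2b, a small regulator named for inhibiting differentiation, was at 88.6 and 60.3 CPM in the mutants, against 6.03 and 7.27 CPM in the controls (3.58 ± 0.34). Haptoglobin, Hp, was at 170 and 73.8 CPM in the mutants, against 13 and 1.82 CPM in the controls (3.79 ± 0.32). With Tnc and Cenpf (a cell cycle gene), 5 genes are named from this group, of which 5, 5, 0 and 4 passed in the fits without a library. Eid2b ranged from 2.94 without mutant 1 to 3.79 without mutant 2, and Hp ranged from 2.52 without mutant 1 to 6.07 without control 1.

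The remaining 7 of the 12 higher genes by p were Stfa1, Cstdc5, Cstdc4, Stfa2, Stfa3, Stfa2l1 and Retnlg, stefin-family and granulocyte genes. Stfa1 was at 116 and 379 CPM in the mutants, against 0.634 CPM (2 UMIs) and 1.82 CPM (1 UMI) in the controls. All 6 of the 6 tested neutrophil markers were also higher, S100a8 at 377 and 1726 CPM in the mutants, against 2.85 and 0 CPM in the controls, and S100a9 at 411 and 1962 CPM in the mutants, against 2.54 and 7.27 CPM in the controls. Osteoblasts with over 0.5% globin and neutrophil UMIs numbered 11 in mutant 1 and 59 in mutant 2, against 4 in control 1 and 0 in control 2. Without those cells Stfa1 was at 2.20 and 18.0 CPM in the mutants, against 0.653 and 1.82 CPM in the controls, S100a8 at 12.8 and 54.6 CPM in the mutants, against 2.61 and 0 CPM in the controls, and Hp stayed at 170 and 63.7 CPM in the mutants, against 12.4 and 1.82 CPM in the controls. Outside the stefin, Retnlg and neutrophil genes, every gene named here with a call in this comparison also passed without those cells.

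Proliferation genes were higher in mutant osteoblasts, and fewer of them passed among cells with more osteocalcin, which are also fewer cells. Of 20 cell cycle genes tested, 14 were higher and 0 lower, with a median log2 of 1.86 against 0.04 over all genes. Without the version term 13 were higher and 0 lower. Birc5 (survivin, of the chromosomal passenger complex) was at 69.2 and 83.0 CPM in the mutants, against 10.8 and 12.7 CPM in the controls (2.57 ± 0.28, adjusted p = 1.51e-05). Cenpf, a kinetochore protein, was at 39.6 and 78.5 CPM in the mutants, against 1.90 CPM (6 UMIs) and 0 CPM in the controls, and Tpx2, a spindle factor, at 15.9 and 31.7 CPM in the mutants, against 1.27 CPM (4 UMIs) and 3.63 CPM (2 UMIs) in the controls. The topoisomerase Top2a was at 19.1 and 38.1 CPM in the mutants, against 1.59 and 9.09 CPM in the controls. Cyclin D1, Ccnd1, was at 84.8 and 88.0 CPM in the mutants, against 14.0 and 21.8 CPM in the controls, and 4 of 12 cyclins and CDK inhibitors were higher and 0 lower. Of these 12, 1 was higher without the version term. Neutrophil transcripts moved with the same libraries, and without the blood-rich cells Birc5 had a log2 of 2.80. Of these 5 named genes 5, 5, 0 and 5 passed in the fits without a library; Top2a ranged from 1.55 without control 1 to 3.89 without control 2, and Tpx2 from 2.61 to 3.94 in the same fits.

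The proliferation calls differed with the osteocalcin level of the cells. In cells with at least 5000 CPM of osteocalcin 3 of 19 cell cycle genes passed as higher, and in cells with 2000 to 20000 CPM 6 of 20 did. In the cells at 5000 CPM or more Top2a did not pass (log2 1.57, adjusted p = 0.18) and Birc5 had a log2 of 1.60 (adjusted p = 0.0074), while Cenpf (4.03), Tpx2 (2.74) and Ccnd1 (2.12) passed. Mki67, a proliferation marker named here after its values were seen, had 300 of its 364 UMIs in mutant 1 and 859 of its 1011 in mutant 2 in the class at 1000 to 5000 CPM, against 22 of 31 in control 1 and 0 of 5 in control 2. In that class it was at 42.7 and 153 CPM in the mutants, against 19.2 CPM in control 1, where control 2 had 1 cell. At 20000 CPM and over it was at 7.06 and 4.56 CPM in the mutants, against 2.13 and 9.12 CPM in the controls, and the genotypes overlapped.

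Most of the lineage's transcription factors did not pass, as was so for most genes tested. Runx2 was at 165 and 185 CPM in the mutants, against 158 and 209 CPM in the controls (-0.20 ± 0.21, adjusted p = 0.59), and Sp7 at 196 and 273 CPM in the mutants, against 180 and 200 CPM in the controls (0.13 ± 0.20, adjusted p = 0.73). Both overlapped between genotypes. Of 17 factors tested, 1 was higher and 2 lower, 17.65% in all, beside 13.5% over all genes tested. Twist1, a bHLH factor that restrains osteoblast differentiation, was at 103 and 107 CPM in the mutants, against 257 and 162 CPM in the controls (-1.14 ± 0.22). Tcf7, a nuclear effector of Wnt signalling, was at 33.3 and 37.7 CPM in the mutants, against 57.4 and 69.1 CPM in the controls (-0.96 ± 0.23), while its relative Tcf7l2 was at 103 and 75.3 CPM in the mutants, against 39.3 and 54.5 CPM in the controls (0.88 ± 0.27). In the osteocyte list 1 of 9 genes was higher and 1 lower: the homeobox gene Irx5, at 184 and 209 CPM in the mutants, against 60.3 and 34.5 CPM in the controls (1.84 ± 0.25), and the potassium channel gene Kcnk2 (-2.31 ± 0.40). Of these 5 called genes 2, 2, 0 and 2 passed in the fits without a library. Irx5 had a log2 of 2.45 without control 1, and Kcnk2 ranged from -2.79 without mutant 2 to -1.61 without mutant 1.

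Enzymes and transporters that govern mineral gave a mixed picture, with 1 of 16 higher and 3 lower. Alpl, the alkaline phosphatase that removes the mineral inhibitor pyrophosphate, was at 492 and 591 CPM in the mutants, against 382 and 618 CPM in the controls. The genotypes overlapped (0.00 ± 0.19, adjusted p = 0.996). On the supply side of pyrophosphate, the transporter Ank was at 90.7 and 81.8 CPM in the mutants, against 26.3 and 34.5 CPM in the controls (1.45 ± 0.26), and the enzyme Enpp1 was at 7.05 and 7.46 CPM in the mutants, against 16.5 and 18.2 CPM in the controls (-1.37 ± 0.33). Smpd3, a sphingomyelinase needed for matrix mineralization, was at 548 and 445 CPM in the mutants, against 950 and 683 CPM in the controls (-0.86 ± 0.17), and the annexin gene Anxa6 fell by 0.996 on the log2 scale. Phex, an endopeptidase of phosphate balance, did not pass (0.38 ± 0.20, adjusted p = 0.24). Of the 4 called genes 2, 2, 0 and 0 passed in the fits without a library, and Smpd3 in none of them.

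Signals to neighbouring cells changed in both directions. Csf1, the growth factor of macrophages and osteoclast precursors, was at 148 and 82.0 CPM in the mutants, against 13.6 and 18.2 CPM in the controls (2.93 ± 0.32, adjusted p = 1.51e-05). The semaphorin Sema3d was at 21.2 and 42.5 CPM in the mutants, against 81.5 and 81.8 CPM in the controls (-1.64 ± 0.25), and the osteoclast-regulating list had 1 higher and 1 lower gene of 9. In the BMP and TGF-beta list 7 of 27 were higher and 1 lower, but without the version term 1 was higher and 0 lower. Bmp3, a BMP ligand that opposes osteogenic BMPs, was at 236 and 221 CPM in the mutants, against 102 and 96.3 CPM in the controls (1.06 ± 0.21), and the ligand Bmp8a at 44.7 and 44.8 CPM in the mutants, against 9.20 and 3.63 CPM in the controls (2.40 ± 0.32). The pseudoreceptor Bambi was at 574 and 721 CPM in the mutants, against 316 and 258 CPM in the controls (1.01 ± 0.19). Ccn2 (connective tissue growth factor) rested on 1 library, with 104 CPM in mutant 1 and 17.4 CPM in mutant 2, against 18.1 and 3.63 CPM in the controls (2.41 ± 0.31), and without mutant 1 its log2 was -0.0046.

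In the Wnt list 3 of 27 genes were higher and 5 lower, and without the version term 2 were higher and 4 lower. The lower ones included 3 inhibitors or feedback genes: Nkd2 was at 2.32 and 4.69 CPM in the mutants, against 18.4 and 32.7 CPM in the controls (-3.04 ± 0.36), Frzb fell by 2.73 on the log2 scale and Dkk3 by 2.29. Another secreted Wnt binder, Sfrp1, was higher, at 18.1 and 15.4 CPM in the mutants, against 3.49 and 5.45 CPM in the controls. Among IGF and hormone response genes 3 of 19 were higher and 1 lower; Rgs2, a regulator of G-protein signalling, was at 78.8 and 42.4 CPM in the mutants, against 9.51 and 10.9 CPM in the controls (2.68 ± 0.33). Of the 11 signalling genes named with a call in this paragraph and the one before, 6, 9, 0 and 5 passed in the fits without a library. Of these, Bmp8a ranged from 2.06 without control 2 to 3.57 without control 1, Dkk3 from -2.94 without control 1 to -1.46 without control 2, Csf1 from 2.15 without mutant 1 to 3.29 without mutant 2, and Rgs2 from 1.79 without mutant 1 to 2.97 without mutant 2.

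Folding of secreted protein showed higher chaperones. Hspa5 (BiP), the main chaperone of the endoplasmic reticulum, was at 1042 and 1425 CPM in the mutants, against 336 and 494 CPM in the controls (1.43 ± 0.17, adjusted p = 3.52e-05). The disulfide isomerases Pdia4, Pdia6 and Pdia3 had log2 fold changes of 1.36 ± 0.22, 0.99 ± 0.20 and 0.92 ± 0.18. The list as a whole was split, with 4 of 26 genes higher and 4 lower, and without the version term 2 were higher and 0 lower. Of 12 tested heat-shock chaperones 5 were higher and 0 lower, but 1 and 0 without the version term. Hsp90ab1 was at 1690 and 1793 CPM in the mutants, against 782 and 945 CPM in the controls (0.87 ± 0.16). Of 24 collagen-processing genes 1 was higher and 3 lower, but 0 and 0 without the version term. The 3 lower ones were Serpinf1 (pigment epithelium-derived factor, -0.93 ± 0.14) and the prolyl 4-hydroxylase subunits P4ha1 and P4ha2 (-0.74 ± 0.21 and -0.79 ± 0.21). Of these 8 genes 0, 1, 0 and 0 passed in the fits without a library, all in the same direction, Hspa5 between 1.25 and 1.63. Serpinf1 was not lower in the fit on cells with 2000 to 20000 CPM of osteocalcin, as given below.

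2 m6A readers were higher, and of the writer subunits Rbm15 passed the test. Of 23 genes of the m6A machinery 3 were higher and 0 lower, 13% of the list, beside 8.28% higher over all genes. The counts were also 3 and 0 without the version term. Ythdf2, a reader that promotes decay of methylated RNA, was at 95.5 and 106 CPM in the mutants, against 27.9 and 21.8 CPM in the controls (1.81 ± 0.26, adjusted p = 1.48e-04). Its relative Ythdf1 was at 55.3 and 67.5 CPM in the mutants, against 21.3 and 23.6 CPM in the controls (1.30 ± 0.26), and Rbm15, a writer-complex RNA-binding subunit, at 46.0 and 41.5 CPM in the mutants, against 10.8 and 18.2 CPM in the controls (1.69 ± 0.31). The p53 target list had 3 of 17 higher and 0 lower: Phlda3 (1.65 ± 0.25), Aen (1.46 ± 0.27) and Bax (0.88 ± 0.22). Of the Krüppel-like factors, Klf2 was at 287 and 240 CPM in the mutants, against 116 and 187 CPM in the controls; the genotypes did not overlap and the test was not passed (0.71 ± 0.25, adjusted p = 0.069). Klf4 was at 244 and 244 CPM in the mutants, against 303 and 522 CPM in the controls (-0.85 ± 0.22, adjusted p = 0.018), the 1 call among 11 such factors. Of the 7 called genes named here 5, 5, 0 and 4 passed in the fits without a library.

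Class I antigen presentation genes were lower in 4 of 12 cases and higher in none, but without the version term 1 was lower. B2m, the light chain, was at 163 and 145 CPM in the mutants, against 421 CPM in control 1 and 160 CPM in control 2. The level of control 2 lay between the mutants' levels, and without control 1 the log2 was -0.09 in place of -0.95. H2-K1 was at 61.0 and 61.7 CPM in the mutants, against 135 and 65.4 CPM in the controls, with a log2 of -0.84 with all libraries and -0.14 without control 1. H2-T23 kept a wide gap, at 3.33 and 2.86 CPM in the mutants, against 12.7 and 18.2 CPM in the controls (-2.35 ± 0.46), and H2-T22 was at 1.01 and 2.43 CPM in the mutants, against 5.71 and 7.27 CPM in the controls, at a log2 of -2.26 with all libraries and -1.64 without mutant 1. Ifitm3, an interferon-induced relative of Ifitm5, was at 509 and 396 CPM in the mutants, against 178 and 135 CPM in the controls (1.39 ± 0.20), within a list of 2 higher and 1 lower gene of 10. Cebpb, a leucine-zipper factor of adipogenesis and inflammation, was at 276 and 142 CPM in the mutants, against 43.1 and 58.2 CPM in the controls (1.97 ± 0.30), within an adipogenic list of 3 higher and 0 lower of 8. Of the immediate early genes 2 of 20 were higher and 3 lower, Fosb at 56.9 and 120 CPM in the mutants, against 131 and 443 CPM in the controls (-1.70 ± 0.23), and Fos at 359 and 814 CPM in the mutants, against 541 and 1139 CPM in the controls (-0.69 ± 0.17), with overlap. Of these 8 genes 1, 4, 0 and 3 passed in the fits without a library. Cebpb ranged from 1.24 without mutant 1 to 2.49 without mutant 2 and Fosb from -2.43 without control 1 to -0.85 without control 2. Few genes of energy metabolism were called, with 0 of 17 glycolysis genes higher and 1 lower, and 1 of 17 oxidative phosphorylation genes higher and 0 lower. That is 5.88% of each list, beside 13.5% over all genes tested, and a gene that was not called may still differ.

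**Figure D4:**
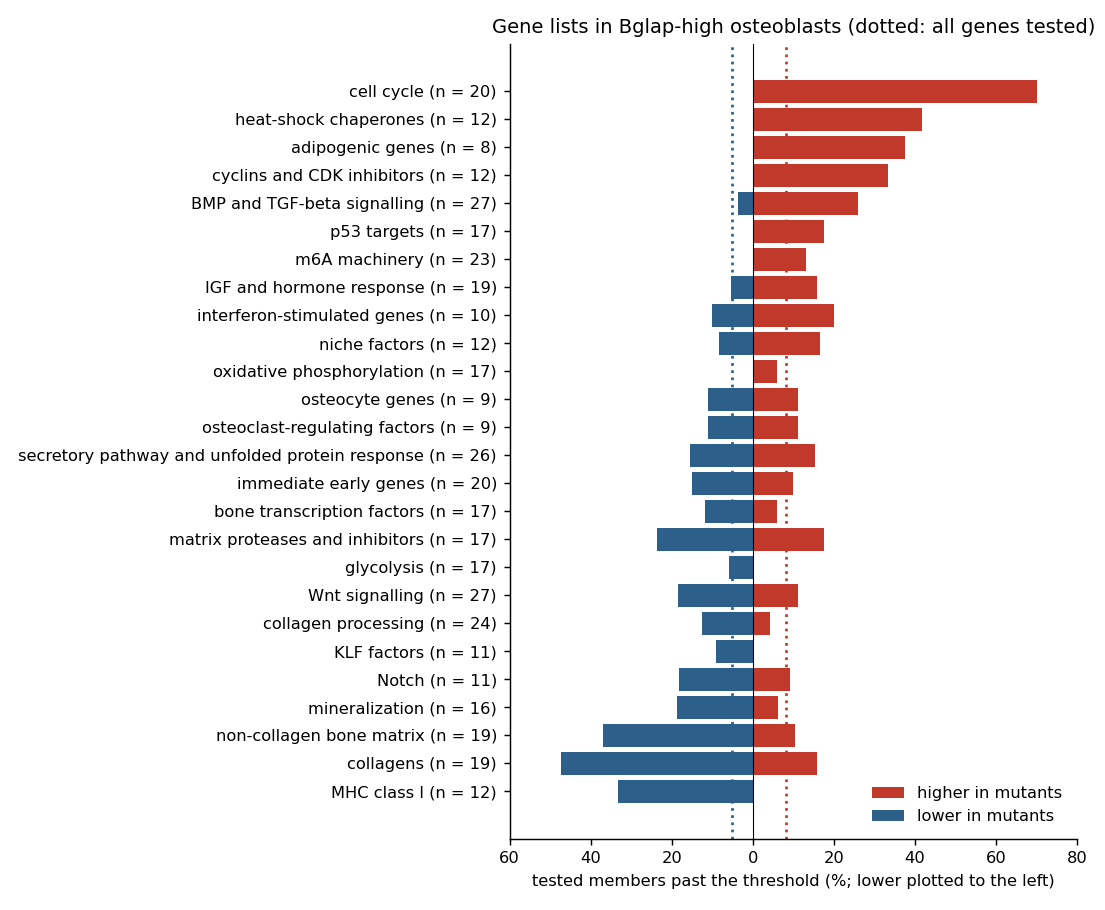
Bars give the percent of the tested members of each pathway list (lists of cell type markers are not drawn) that were higher (right, red) or lower (left, blue) in mutant osteoblasts, with the number tested in brackets and dotted lines at the shares over all genes tested, 8.28% and 5.17%. Among the lists drawn, cell cycle genes reach furthest to the right (14 of 20) and collagens furthest to the left (9 of 19 lower).

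Because mutant osteoblasts held less osteocalcin, the genotypes were also compared within set ranges of osteocalcin. Among cells at 5000 to 20000 CPM of Bglap with Bglap2 there were 136 and 137 mutant cells, against 25 and 4 control cells, and Bglap with Bglap2 summed to 9448 and 11010 CPM in the mutants, against 8854 and 9632 CPM in the controls, with overlap. Col11a2 was at 110 and 225 CPM in the mutants there, against 1499 and 1384 CPM in the controls. Dcn was at 774 and 1505 CPM in the mutants, against 3449 and 2735 CPM in the controls, and Ptn at 1.03 and 1.15 CPM in the mutants, against 130 and 229 CPM in the controls. Tnc was at 1033 and 1093 CPM in the mutants, against 182 and 545 CPM in the controls. These 4 genes did not overlap between genotypes, whereas Ibsp did, at 22620 and 12640 CPM in the mutants, against 4338 and 12970 CPM in the controls. The 4 genes had been called in all osteoblasts, of which these cells are a part. Over all osteoblasts 50.1% of the genes tested did not overlap, and the share in this class was not computed.

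The gap in type I collagen narrowed in the same class, but the genotypes did not overlap. Col1a1 was at 60890 and 72870 CPM in the mutants, against 100200 and 86250 CPM in the controls, and Sparc at 27970 and 28860 CPM in the mutants, against 37270 and 30130 CPM in the controls. In the lowest class, at 1000 to 5000 CPM, Col1a1 was at 40590 and 43610 CPM in the mutants, against 104400 CPM in control 1, where control 2 had 1 cell. In the highest class, at 20000 CPM and over, it was at 87380 and 80800 CPM in the mutants, against 114600 and 124700 CPM in the controls, but osteocalcin itself differed in that class, at 54440 and 44430 CPM in the mutants, against 102400 and 113400 CPM in the controls. A fit on cells with 2000 to 20000 CPM of osteocalcin called 422 genes higher and 158 lower, and of 1458 genes called in all osteoblasts and fitted here, 540 passed again in the same direction. It held 267 and 277 cells of mutants 1 and 2, against 52 and 5 cells of controls 1 and 2. Of these, 131 and 140 mutant cells lay at 2000 to 5000 CPM, against 27 and 1 control cells. The spread of osteocalcin inside the window therefore differed in control 2. Of 73 named genes with a call in all osteoblasts (Retnlg and the stefin-family genes other than Stfa1 not counted), 71 could be fitted and 52 passed. In that fit Col1a1 did not pass (log2 -0.43, adjusted p = 0.12) nor did Sparc (-0.18, adjusted p = 0.74), Twist1 had a log2 of -0.09, and Serpinf1 turned to 0.50 (adjusted p = 0.31). The other named genes that did not pass were Col1a2 (-0.39, adjusted p = 0.20), Col5a2, Col11a1, Smpd3, Anxa6, Tcf7, Tcf7l2, Nkd2 (adjusted p = 0.073), Sfrp1 (1.96, adjusted p = 0.059), P4ha1, P4ha2, Klf4, H2-T23 (-1.66, adjusted p = 0.15), H2-K1 and Fos, all in their earlier direction, and Col15a1 and H2-T22 were too low to be fitted. Col11a2 (-3.17), Ptn (-6.17), Dcn (-1.67), Lum (-1.68) and Tnc (2.16) passed, and Klf2 passed in it as well (1.28, adjusted p = 0.0042). In an edgeR fit on cells at 5000 CPM or more, Col1a1 (-0.72, adjusted p = 3.01e-04) and Sparc (-0.57, adjusted p = 0.0024) did pass. Of the 73 named genes 63 passed there and 10 did not. Those cells include the highest class, in which osteocalcin differed between the genotypes.

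**Figure D5:**
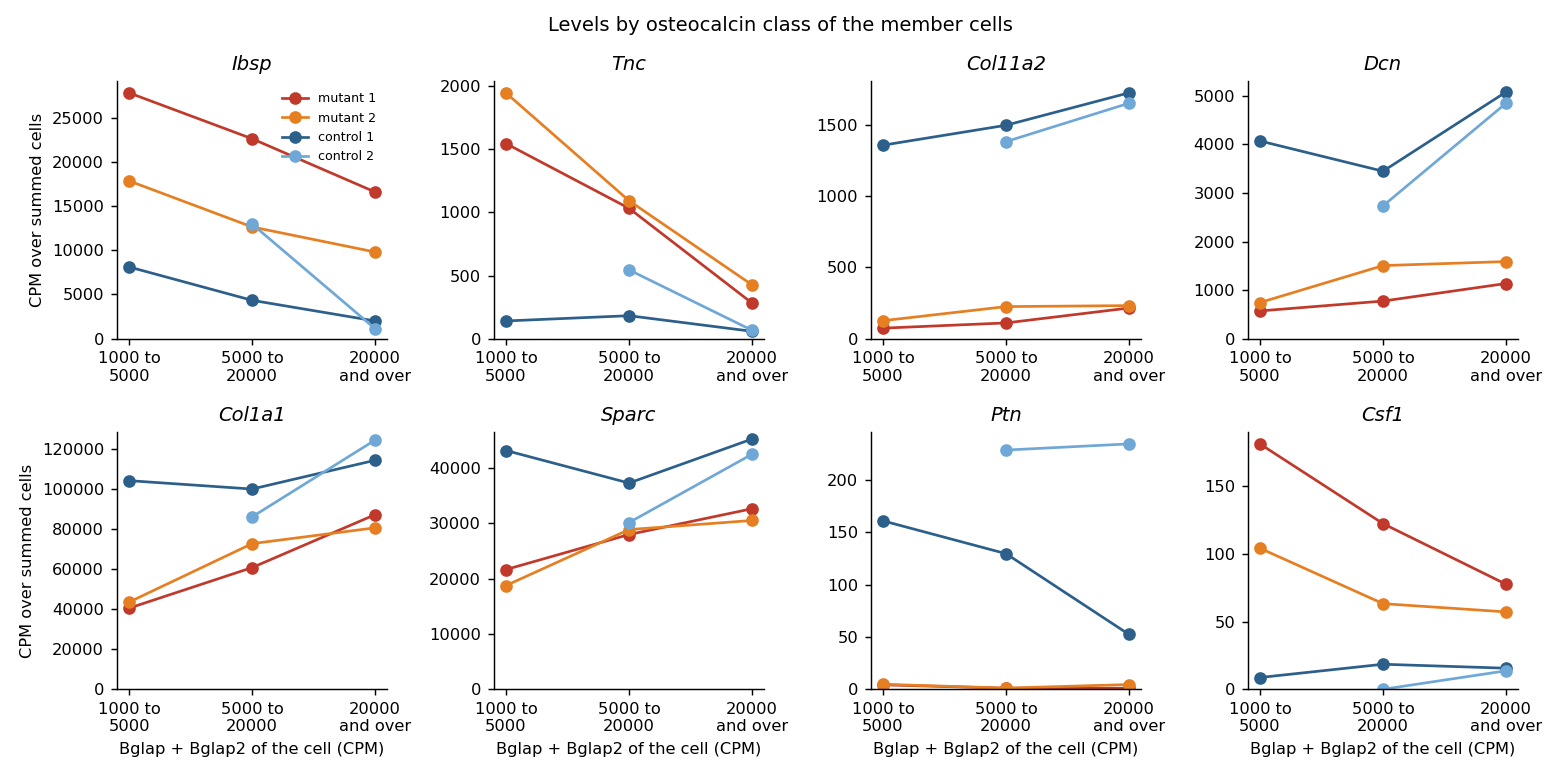
Lines give CPM over the summed osteoblasts of each library in 3 classes of osteocalcin (Bglap with Bglap2 of the cell, in CPM), for 8 genes; classes with under 3 cells are not drawn, and control 2 has 4 cells in the middle class. Col11a2, Dcn, Ptn, Col1a1 and Sparc stay lower in the mutants in each class drawn. The gap in Col1a1 and Sparc is narrower in the middle class than in the lowest.

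Few genes separated the osteoblasts from the other bone-lineage cells in how they differed between genotypes. In a fit of both populations with the library as a block, the genotype difference was more positive in osteoblasts for 1 of 12370 genes (0.00808%) and more negative for 1 (0.00808%), together 0.0162%, while 869 had an unadjusted p under 0.05. DESeq2 called 14 and 3. The first was Top2a, at 19.1 and 38.1 CPM in mutant osteoblasts, against 1.59 and 9.09 CPM in control osteoblasts, while the other bone-lineage cells had 47.8 and 68.4 CPM in the mutants, against 49.8 and 382 CPM in the controls. The difference of the log2 fold changes was 4.07 ± 0.35 (adjusted p = 0.014), and it rested on 5 UMIs in each control library's osteoblasts. The second was Col2a1, the cartilage collagen, at 25.6 and 59.9 CPM in mutant osteoblasts, against 113 and 39.98 CPM in control osteoblasts, while the other cells had 30.9 and 62.1 CPM in the mutants, against 30.0 and 16.0 CPM in the controls (-2.05 ± 0.21, adjusted p = 0.033). Col2a1 missed the threshold without control 1 (-1.56), mutant 1 (-1.89) or mutant 2 (-2.04). For Ptn, Col11a2, Tnc and Csf1, picked from the genes with wide genotype gaps, the difference of the differences did not pass. It was -3.04 ± 0.44 for Ptn (adjusted p = 0.12), 0.29 ± 0.22 for Col11a2 (adjusted p = 0.78), 0.68 ± 0.59 for Tnc (adjusted p = 0.81) and 0.05 ± 0.44 for Csf1. Some genes with wider gaps than Tnc and Csf1, among them Col15a1 and Smoc2, are not given here. Control 2 brought 13 other bone-lineage cells to this comparison. Without control 1 the counts were 589 and 327, and without control 2 they were 78 and 15.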

How the data were processed

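UMI counts per gene and barcode were deposited by the authors as 1 matrix per library. Per the submitters' processing notes they were made with Cell Ranger 5.0.1 (mutant 1, control 1) and 6.1.2 (mutant 2, control 2) on mm10; the matrix headers name other Cell Ranger versions for part of the libraries, so the version term describes the notes and not a known batch. The libraries were made with a 10x 3′ kit, per the labels' protocols. Library totals were 47390414 and 81890483 UMIs in mutants 1 and 2, and 116863081 and 114143361 in controls 1 and 2.

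Osteoblasts were found by the rule in the report, without clustering. Their counts were summed per library and fitted with edgeR 4.0.16 (TMM, filterByExpr, glmQLFit, R 4.3.3), with the notes' version as a term and the threshold at 0.05; fits without 1 library drop that term. The 9 genes of the rule were left untested. DESeq2 1.42.0 and Scrublet (scanpy 1.11.5) served as alternatives; Scrublet marked 16 and 11 mutant and 12 and 0 control osteoblasts, which were kept. On simulated counts over 11074 genes for the genotype comparison, 66% of 100 genes changed by a log2 of 1 and 100% of 100 genes changed by 2 were recovered, with 6 false calls. The changed genes were drawn from the better expressed ones, and the simulated spread followed the trend over all genes. No library or version effect was put in, so these figures do not carry over to low genes or to differences between the libraries.

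The cells, gene lists and tests were chosen with earlier results of these data known. Named genes are the genes of the rule and markers, the 12 with the smallest p in each direction among called genes whose libraries do not overlap (leaving out markers of other cells), up to 4 called genes of each list by p, the called genes of the comparison with other bone-lineage cells, Mettl3 and Klf2, and members of the transcription factor, mineral, collagen and osteoblast marker lists. Gene groups are described by counts, with no set test. Control 2 held 21 osteoblasts, which limits the precision.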

Additional observations from a re-analysis of the deposited data

Results flagged for a closer look

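2 genes differed in their genotype effect between the osteoblasts and the other bone-lineage cells of the same libraries, by the test of that difference. Top2a had a difference of 4.073 on the log2 scale, osteoblasts minus other bone-lineage cells. Leaving out cells of both populations with over 0.5% globin and neutrophil UMIs gave 2.81, which no longer passed; this left 480 and 407 mutant and 111 and 21 control osteoblasts, and 1081 and 585 mutant and 152 and 11 control cells of the other population. Col2a1 had a difference of -2.051. It had 113 CPM in control 1 and 39.98 CPM in control 2, so the control libraries themselves stood apart, on 356 and 22 UMIs.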

How the results depend on the processing

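Counts higher and lower in mutant osteoblasts (941 and 587) became 327 and 236 with DESeq2, 406 and 244 without the version term, and 422 and 158 in cells with 2000 to 20000 CPM of osteocalcin. Leaving out 1 library, and the version term with it, gave 0 to 507 higher and 3 to 265 lower. Another size factor, no low-count filter, no doublets, stricter mitochondrial, osteocalcin or CPM limits, no blood-rich cells, deeper cells and leaving out the rule's genes kept both counts within 1.5 times. The osteocalcin window, the limit of 10000 UMIs and the omission of the rule's genes were chosen after seeing the data. Against other bone-lineage cells the counts (1 and 1) became 153 and 57 without a low-count filter, 14 and 3 with DESeq2, 0 more negative without doublets, 0 and 0 with limits of 100 CPM for Ifitm5 and Ibsp (849 at an unadjusted p under 0.05), 20 and 6 without blood-rich cells, and 4 to 589 and 1 to 327 without 1 library. The cause of these shifts was not tested. The share difference of 13.1 points became 5.28 with osteocalcin at 5000 CPM and 8.82 with cells thinned to 1000 UMIs, and 8.88 to 17.4 without 1 library; that of bone-lineage cells (-17.4) became -5.12 with thinned cells, and -27.95 to -6.82 without 1 library. Within the notes' versions, with 1 library of each genotype and no test, the share differed by 16.7 (5.0.1) and 9.58 (6.1.2) points, and 1528 and 1522 of the 1528 called genes kept their direction.

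Directions turned for few named genes. Alpl, at a log2 near 0, was -0.0078 with other size factors, -0.0078 with DESeq2, -0.022 without the version term, -0.018 with the CPM limits, -0.30 at 5000 CPM, -0.0054 in deeper cells and -0.25 to 0.27 without 1 library. Serpinf1 was 0.50 in the osteocalcin window. Without 1 library Spp1 was -0.43 to 1.47 and Ccn2 -0.0046 to 4.11. Without the version term 24 of the named results lost their call. No paired analysis was possible because no label ties a mutant library to a control library by animal or day. The version term sets mutant 1 with control 1 and mutant 2 with control 2, so it takes the same form as a replicate block on those numbers, with 941 and 587 calls with it and 406 and 244 without it.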
